A study of Mus musculus with 6 samples.

Results

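Zic1, Zic2, Msx1, Msx2, Dlx1, Dlx2, Dlx5 and Dlx6 are 8 genes of developmental transcription factors, whose levels were measured in mouse embryonic fibroblasts by whole-transcript array. They were taken by gene symbol from the deposited tables, where each had 1 probe set, so that 8 of 23346 probe sets and 8 of 20723 gene symbols are described. They were chosen by their measured Ezh2 differences: Zic2, Msx2, Dlx5 and Zic1 were higher without Ezh2 in cells with an intact Ink4a/Arf locus and differed little in cells lacking it. The differences in both backgrounds, and the gap between them, are therefore given as a description with no test. Msx1, Dlx1, Dlx2 and Dlx6 complete the families and the Dlx gene pairs.

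The study compared fibroblast lines of the Ola129 strain that differ in Ezh2, the methyltransferase of the Polycomb repressive complex PRC2, and in Ink4a/Arf, the locus of a cell cycle inhibitor and an activator of p53. There were 2 arrays of Ink4a/Arf-/- Ezh2 -/- cells, 2 of Ink4a/Arf-/- Ezh2 fx/fx cells, 1 of Ink4a/Arf+/+ Ezh2 -/- cells and 1 of Ink4a/Arf+/+ Ezh2 fx/fx cells. Culture was the same for all lines, on gelatin in medium holding serum plus leukemia inhibitory factor, collected while growing exponentially, and 150 ng of RNA was labelled per array. The series text speaks instead of esiRNA against Ezh2, and the arrays were grouped by their titles. How the Ezh2 -/- cells were derived, and whether replicates are separate cultures, is not stated in the labels. Each SE is from the limma fit, which draws a probe set's spread toward that of all probe sets. It can thus exceed a gene's own replicate spread, and it covers only spread between these arrays, which may be technical. The levels are the log2 values that the authors deposited, in a table for each background, and array medians ran from 8.25 to 8.32 in Ink4a/Arf-/- cells, against 7.51 and 7.498 in Ink4a/Arf+/+ cells, so differences were taken within a background. Ezh2 itself was only slightly lower on the Ezh2 -/- arrays, by a log2 difference of -0.35 in Ink4a/Arf-/- and -0.36 in Ink4a/Arf+/+ cells, and whether its probes lie in the deleted part cannot be told, so this checks the labels only weakly (limma in Ink4a/Arf-/-, adjusted p = 0.577). The 11 fibroblast markers measured had a median rank between the 94.9th and 96.9th percentile of an array, against medians between the 19.5th and 38.0th percentile for the markers of 7 other cell types. On fx/fx arrays the fibroblast markers averaged 11.61 and 11.62 in Ink4a/Arf-/- and 11.61 in Ink4a/Arf+/+ cells. The 7 neural markers, which are dimmer, averaged 7.77 and 7.89, against 6.49. Dim markers thus read higher on the Ink4a/Arf-/- arrays, and whether this narrowed log2 differences there was not tested. Of the fibroblast markers, 3 of 11 were higher on the Ink4a/Arf+/+ Ezh2 -/- array, where 51.1% of all genes were. Dcn stood there at a log2 difference of 1.46 and Pdgfra at -1.41, while Dcn differed by 0.43 and Pdgfra by -0.17 in Ink4a/Arf-/- cells. The muscle marker Des differed by 0.15 in Ink4a/Arf-/- and -1.75 in Ink4a/Arf+/+ cells, and its difference between backgrounds passed the limma test (adjusted p = 0.0235). The other muscle markers, Myod1, Myog and Myf5, differed by only -0.065, 0.14 and -0.092 in Ink4a/Arf+/+ cells. The part of these markers in the differences of the 8 genes was not tested.

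PRC2 trimethylates histone H3 on lysine 27, and in mammals it is found mostly at promoters rich in CpG dinucleotides, with genes of developmental transcription factors among its best known targets. Zic proteins bind DNA through zinc fingers and act in the neural tube, the somites and the neural crest. Msx and Dlx proteins carry homeodomains, act downstream of bone morphogenetic proteins (BMPs) in the head, limbs and skeleton, and often oppose each other, Msx factors mostly as repressors and Dlx factors as activators. Dlx genes lie in convergently transcribed pairs, Dlx1 with Dlx2 and Dlx5 with Dlx6, and Zic1 lies beside Zic4 and Zic2 beside Zic5.

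Promoter windows from RefSeq (build GRCm38.p6), 300 bases long around a gene's start, were found for 5 of the 8 genes, Zic1, Msx1, Msx2, Dlx1 and Dlx2. Windows of 4 of them are shown because they set genes that were at least 2-fold higher without Ezh2 in Ink4a/Arf+/+ cells (Zic1 and Msx2) beside relatives that differed by less than 0.1 there (Msx1 and Dlx2). Each is written 5′ to 3′ on the gene's strand, with every CpG in capitals. The Zic1 window is chr9:91365719-91366018 and the Msx2 window chr13:53472731-53473030, both on the minus strand. The Msx1 window is chr5:37824536-37824835 and the Dlx2 window chr2:71546705-71547004, also on the minus strand.
Zic1: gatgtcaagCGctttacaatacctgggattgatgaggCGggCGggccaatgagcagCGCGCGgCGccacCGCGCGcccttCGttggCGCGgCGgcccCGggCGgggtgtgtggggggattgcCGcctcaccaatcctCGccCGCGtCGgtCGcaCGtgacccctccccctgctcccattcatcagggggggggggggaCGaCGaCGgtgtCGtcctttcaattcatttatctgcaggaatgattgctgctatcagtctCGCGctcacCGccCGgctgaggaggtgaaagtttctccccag
Msx2: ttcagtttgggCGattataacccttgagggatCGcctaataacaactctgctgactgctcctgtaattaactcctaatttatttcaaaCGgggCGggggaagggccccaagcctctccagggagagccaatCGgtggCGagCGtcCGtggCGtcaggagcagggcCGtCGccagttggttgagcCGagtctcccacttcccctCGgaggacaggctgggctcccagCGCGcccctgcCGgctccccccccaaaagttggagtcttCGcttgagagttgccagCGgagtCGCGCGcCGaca
Msx1: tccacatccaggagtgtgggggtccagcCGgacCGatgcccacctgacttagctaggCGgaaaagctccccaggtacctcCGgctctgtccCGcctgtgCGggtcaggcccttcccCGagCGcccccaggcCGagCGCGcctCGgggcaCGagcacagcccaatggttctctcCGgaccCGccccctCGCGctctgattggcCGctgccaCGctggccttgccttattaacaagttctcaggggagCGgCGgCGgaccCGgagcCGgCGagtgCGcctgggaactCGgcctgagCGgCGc
Dlx2: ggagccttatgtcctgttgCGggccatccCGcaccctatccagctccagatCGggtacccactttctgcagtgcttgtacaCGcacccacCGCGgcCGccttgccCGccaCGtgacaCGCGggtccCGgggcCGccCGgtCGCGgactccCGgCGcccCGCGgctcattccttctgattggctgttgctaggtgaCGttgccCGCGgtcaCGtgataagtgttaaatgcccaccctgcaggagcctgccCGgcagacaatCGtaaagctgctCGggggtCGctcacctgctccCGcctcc

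CpG-rich windows were shared by the higher and the other members. The window held 31 CpGs for Zic1, 22 for Msx2, 29 for Msx1, 29 for Dlx2 and 27 for Dlx1, while the median over all 32851 promoter windows was 7 and the upper quartile 20. The ratio of observed to expected CpGs was 0.969 for Zic1 and 0.789 for Msx2, against 0.794 for Msx1, 0.898 for Dlx2 and 0.767 for Dlx1, and its median over all windows was 0.384. CpG content thus did not separate Zic1 and Msx2 from Msx1, Dlx1 and Dlx2. Zic4, the neighbour of Zic1, had 8 CpGs in its window, and Zic5, the neighbour of Zic2, had 15. The motif TAATTA, a core bound by many homeodomain proteins and the same on both strands, was in 1 of the 5 windows, that of Msx2, and in 5.29% of all windows. GGCGCC, an element bound by BMP-activated SMAD proteins and also the same on both strands, was in the windows of Zic1 and Dlx2 and in 11.9% of all windows. Neither TAATTG nor CAGCAGG, a Zic-type core, was in any of the 5 windows on either strand, and they were in 8.0% and 10.5% of all windows. TAATTA and TAATTG share their first letters, and a match is a run of letters, not a bound site.

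**Figure D1:**
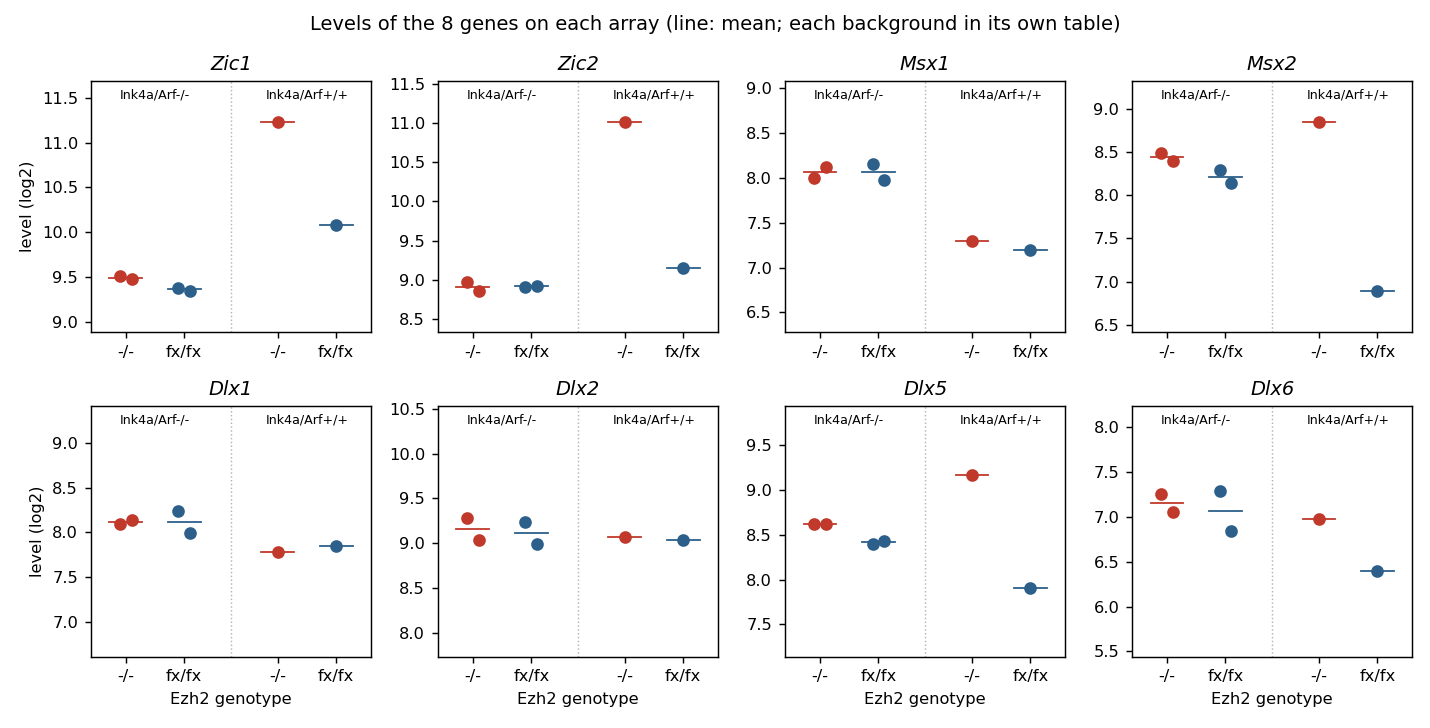
Log2 level (vertical axis) of each of the 8 genes on each array, with Ezh2 -/- arrays in red and fx/fx arrays in blue, Ink4a/Arf-/- cells left and Ink4a/Arf+/+ cells right of the dotted line, and a short line at each group mean. The Ezh2 -/- point stands far above the fx/fx point in Ink4a/Arf+/+ cells for Zic1, Zic2, Msx2 and Dlx5, and heights on opposite sides of the dotted line come from different tables.

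The zinc-finger factors Zic1 and Zic2 were both more than 2-fold higher in the Ink4a/Arf+/+ Ezh2 -/- array. Zic1, which acts in the cerebellum and the dorsal somites, read 11.23 on the Ink4a/Arf+/+ Ezh2 -/- array (probe set 10595695), against 10.08 on the fx/fx array. That is a log2 difference of 1.14 or 2.21-fold, the 124th largest of all probe sets. In a cell population, more cells with Zic1 and more RNA per cell cannot be told apart. Without Ink4a/Arf, Zic1 read 9.51 and 9.48 on the Ezh2 -/- arrays, against 9.38 and 9.35 on the fx/fx arrays, a log2 difference of 0.13 ± 0.07 (SE, n = 2 per genotype). The Zic1 groups did not overlap there, although the step between them was small beside that in Ink4a/Arf+/+ cells. Zic2, whose loss causes forebrain defects in mouse and human, read 11.01 on the Ink4a/Arf+/+ Ezh2 -/- array (probe set 10417176), against 9.16 on the fx/fx array, which is a log2 difference of 1.85 or 3.62-fold. In cells lacking Ink4a/Arf, Zic2 read 8.97 and 8.86 on the Ezh2 -/- arrays, against 8.91 and 8.92 on the fx/fx arrays. Both fx/fx values of Zic2 lay between the Ezh2 -/- values, and the log2 difference was -0.0042 ± 0.08 (SE, n = 2 per genotype).

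The Msx pair parted. Msx2, a homeodomain factor of skull, tooth and hair development and a BMP target, read 8.85 on the Ink4a/Arf+/+ Ezh2 -/- array (probe set 10409314), against 6.89 on the fx/fx array. Its log2 difference of 1.96, or 3.88-fold, was the largest of the 8 genes and the 19th largest of all probe sets. Without Ink4a/Arf, Msx2 read 8.49 and 8.40 on the Ezh2 -/- arrays, against 8.29 and 8.14 on the fx/fx arrays, a log2 difference of 0.23 ± 0.09 (SE, n = 2 per genotype). Both Ezh2 -/- arrays lay above both fx/fx arrays, while the fx/fx replicates themselves were 0.16 apart. Msx1, which has overlapping roles with Msx2 in the limb and face, read 7.29 on the Ink4a/Arf+/+ Ezh2 -/- array (probe set 10529651), against 7.20 on the fx/fx array, which is a log2 difference of 0.091. In cells lacking Ink4a/Arf, Msx1 read 7.999 and 8.12 on the Ezh2 -/- arrays, against 8.16 and 7.98 on the fx/fx arrays, so that the groups overlapped at a log2 difference of -0.0068 ± 0.096 (SE, n = 2 per genotype).

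Of the Dlx genes, only Dlx5 was more than 2-fold higher in the Ink4a/Arf+/+ Ezh2 -/- array. Its partner Dlx6 differed by less, 0.58 between single arrays, and the Dlx1 and Dlx2 pair was nearly level. Dlx5, an activator of bone-forming genes, read 9.17 on the Ink4a/Arf+/+ Ezh2 -/- array (probe set 10543058), against 7.91 on the fx/fx array, which is a log2 difference of 1.26 or 2.39-fold. Without Ink4a/Arf, Dlx5 read 8.62 on both Ezh2 -/- arrays, against 8.40 and 8.43 on the fx/fx arrays, a log2 difference of 0.21 ± 0.07 (SE, n = 2 per genotype). The Dlx5 groups did not overlap there, and the replicates differed by at most 0.025, the tightest of the 8 genes. Dlx6, which acts with Dlx5 in the lower jaw and the limbs, read 6.97 on the Ink4a/Arf+/+ Ezh2 -/- array (probe set 10536353), against 6.39 on the fx/fx array, which is a log2 difference of 0.58 or 1.49-fold. Among Ink4a/Arf-/- cells, Dlx6 read 7.25 and 7.05 on the Ezh2 -/- arrays, against 7.29 and 6.85 on the fx/fx arrays, where the replicates of fx/fx were 0.44 apart and the groups overlapped, at a log2 difference of 0.085 ± 0.16 (SE, n = 2 per genotype).

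Dlx1 and Dlx2, which drive the making of inhibitory neurons in the forebrain, were nearly level in both backgrounds. Dlx1 read 7.79 on the Ink4a/Arf+/+ Ezh2 -/- array (probe set 10472809), against 7.84 on the fx/fx array, which is a log2 difference of -0.059. Without Ink4a/Arf, Dlx1 read 8.09 and 8.14 on the Ezh2 -/- arrays, against 8.24 and 7.99 on the fx/fx arrays, a log2 difference of -0.0011 ± 0.10 (SE, n = 2 per genotype). Dlx2 read 9.07 on the Ink4a/Arf+/+ Ezh2 -/- array (probe set 10483626), against 9.03 on the fx/fx array, which is a log2 difference of 0.035. Among Ink4a/Arf-/- cells, Dlx2 read 9.28 and 9.04 on the Ezh2 -/- arrays, against 9.23 and 8.99 on the fx/fx arrays, a log2 difference of 0.046 ± 0.12 (SE, n = 2 per genotype). Replicates of Dlx2 were further apart than genotypes, by 0.24 in each genotype.

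**Figure D2:**
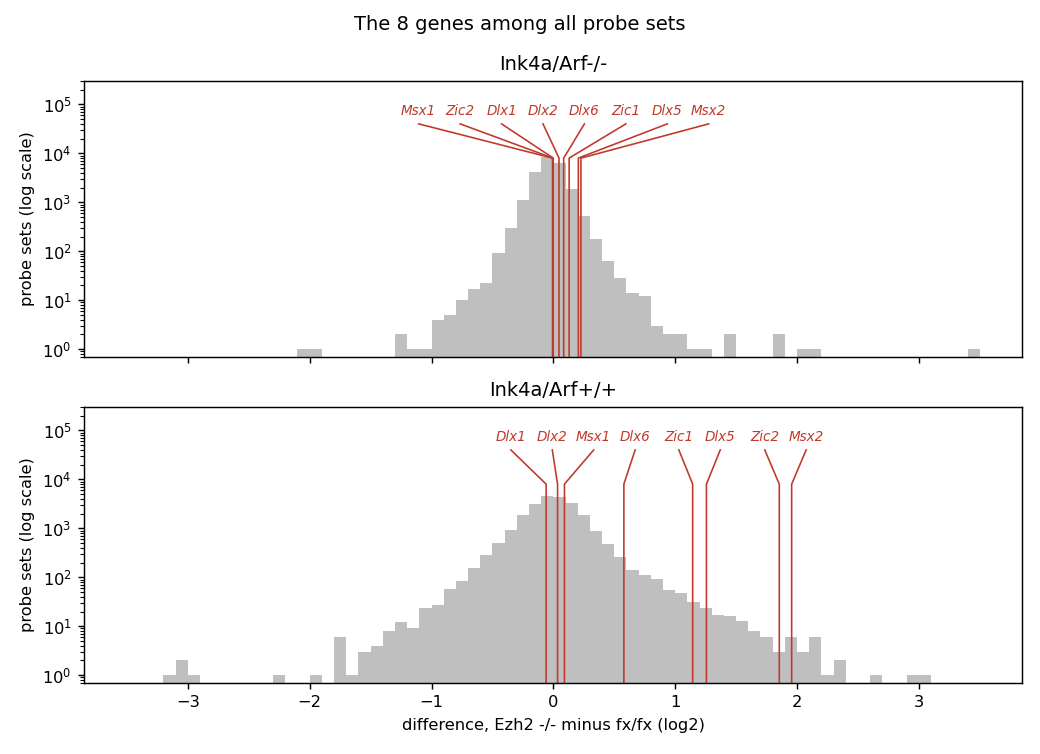
Histograms of the log2 difference, Ezh2 -/- minus fx/fx (horizontal axis), over all 23346 probe sets on a log count axis, with red lines at the 8 genes, for Ink4a/Arf-/- cells (top) and Ink4a/Arf+/+ cells (bottom). All 8 genes lie within 0.23 of 0 in the upper, narrower panel, where Msx2, Dlx5 and Zic1 are at the 97.3th, 96.6th and 91.9th percentile. In the lower panel Zic1, Dlx5, Zic2 and Msx2 lie in the right tail.

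Set against all probe sets, 4 of the 8 genes were at least 2-fold higher in the Ink4a/Arf+/+ Ezh2 -/- array, where 0.797% of all probe sets were, and 0 of the 8 were at least 2-fold lower, where 0.313% of all were. The rule used this contrast, so the share is a description. The smallest difference past the threshold was 1.14 in Zic1, and the largest short of it was 0.58 in Dlx6. Zic1 was picked for its rise and Dlx6 was not, so the gap between them is a description too. The median of the 8 differences was 0.066 in Ink4a/Arf-/- cells and 0.86 in Ink4a/Arf+/+ cells, against medians over all probe sets of -0.027 in Ink4a/Arf-/- and 0.00072 in Ink4a/Arf+/+ cells. Dim markers read higher on the Ink4a/Arf-/- arrays, and the part of this in the contrast of the medians was not tested. The Ink4a/Arf-/- median was -0.038 without fx/fx replicate 2, 0.158 without fx/fx replicate 1, 0.157 without Ezh2 -/- replicate 2 and 0.039 without Ezh2 -/- replicate 1. In Ink4a/Arf-/- cells the groups of 3 of the 8 genes, Zic1, Msx2 and Dlx5, did not overlap and were higher without Ezh2, as were those of 13.0% of all probe sets. Among all differences there, Msx2 ranked at the 97.3th, Dlx5 at the 96.6th, Zic1 at the 91.9th and Zic2 at the 59.2th percentile. For the other 5 genes the Ink4a/Arf-/- groups overlapped, so 0 of 8 were lower on both Ezh2 -/- arrays, where 23.6% of all probe sets were. None of the 8 was 2-fold higher in Ink4a/Arf-/- cells, where 0.0471% of all probe sets were. Limma called 0 of 23346 probe sets in Ink4a/Arf-/- cells at a Benjamini-Hochberg adjusted p below 0.05 (0%), with 1617 at an unadjusted p below 0.05, and 48 were called by limma with a variance trend.

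The array medians differ between the tables of the backgrounds, which were therefore treated as normalized separately, and the rank of each gene within its array is given, with no test, since ranks depend on the probes. In fx/fx cells Zic1 ranked at the 64.7th percentile on both Ink4a/Arf-/- arrays and at the 82.4th on the Ink4a/Arf+/+ array. Zic2 ranked at the 57.9th and 58.9th percentile on the Ink4a/Arf-/- fx/fx arrays and at the 70.5th on the Ink4a/Arf+/+ fx/fx array. Both Zic genes thus ranked lower in the Ink4a/Arf-/- fx/fx cells. Msx2 was in the opposite order, at the 49.6th and 48.7th percentile on the Ink4a/Arf-/- fx/fx arrays and the 42.8th on the Ink4a/Arf+/+ fx/fx array. The ranks of Msx1 in fx/fx cells lay close together, at 47.6 and 46.6 percent of the way up the Ink4a/Arf-/- arrays and 46.5 percent up the Ink4a/Arf+/+ array. For the Ink4a/Arf+/+ Ezh2 -/- array, Zic1 reached the 92.5th, Zic2 the 91.0th, Dlx5 the 70.8th and Msx2 the 66.6th percentile. Dlx6 was the lowest of the 8 genes, between the 27.4th and 43.4th percentile over the 6 arrays. Detection calls were not used here, so whether Dlx6 was above background on each array was not tested.

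**Figure D3:**
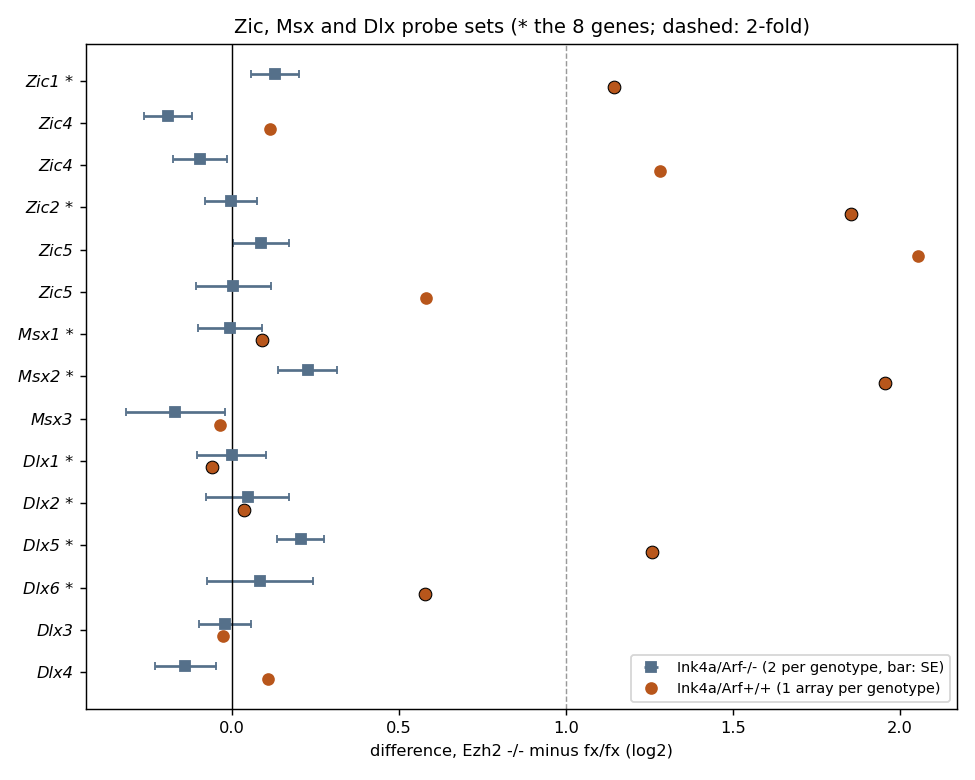
Log2 difference, Ezh2 -/- minus fx/fx (horizontal axis), for each probe set of the Zic, Msx and Dlx genes, with the 8 genes starred, squares with an SE bar for Ink4a/Arf-/- cells and circles for Ink4a/Arf+/+ cells. Circles of Zic1, Zic2 and Msx2 and of 1 probe set each of Zic4 and Zic5 lie right of the dashed 2-fold line, as does that of Dlx5, and all squares lie within 0.23 of 0.

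Family members outside the 8 were compared next. Zic4 and Zic5 each had a probe set that was at least 2-fold higher in the Ink4a/Arf+/+ Ezh2 -/- array, while Msx3, Dlx3 and Dlx4 differed by at most 0.11 there. Zic5 read 9.64 on the Ink4a/Arf+/+ Ezh2 -/- array, against 7.59 on the fx/fx array, with its probe set 10376241, a log2 difference of 2.05 or 4.15-fold. Its other probe set, 10422504, differed by 0.58, so the probe sets labelled Zic5 disagreed on the size. The files give no probe positions, and which of these probe sets reports Zic5 better was not tested. The identifier 10422504 falls among those of the chromosome 14 neighbours Gm5089 (10422500) and Ggact (10422512), and 10376241 does not. Without Ink4a/Arf, the first of these Zic5 probe sets read 8.48 and 8.36 on the Ezh2 -/- arrays, against 8.38 and 8.28 on the fx/fx arrays, and the groups overlapped. Zic4 read 8.77 on the Ink4a/Arf+/+ Ezh2 -/- array, against 7.49 on the fx/fx array, with its probe set 10587782, a log2 difference of 1.28. Its other probe set, 10554140, differed by 0.11, and of both it is 10587782 whose identifier falls beside that of the chromosome 9 neighbour Plscr1 (10587792). Among Ink4a/Arf-/- cells, both Zic4 probe sets were lower on the Ezh2 -/- arrays, by log2 differences of -0.096 and -0.19, and neither passed the limma test (adjusted p = 0.866 and 0.702).

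Zic4 and Zic5 are not among the 8 genes. For them the difference between backgrounds was tested in the limma fit over all probe sets. The test assumes that the single Ink4a/Arf+/+ arrays vary like the replicates. It also assumes that log2 differences are on the same scale in both backgrounds, where dim markers read at unlike levels. Both were listed with earlier results of these data known, and lie beside Zic1 and Zic2, which were picked for this difference. Their test is thus not independent of that choice. The fit called 95 of 23346 probe sets (0.407%). For Zic5 the probe set 10376241 passed, with an Ezh2 difference in Ink4a/Arf-/- minus that in Ink4a/Arf+/+ cells of -1.97 (limma, adjusted p = 0.0235), and had an adjusted p between 0.0209 and 0.0350 when single Ink4a/Arf-/- arrays were left out. The Zic4 probe set 10587782 passed, with -1.38 (limma, adjusted p = 0.0370), but not without Ezh2 -/- replicate 1 (0.0565) or Ezh2 -/- replicate 2 (0.0836). The other probe sets of Zic5 (adjusted p = 0.367) and Zic4 (0.451), and those of Dlx3 (0.992), Dlx4 (0.655) and Msx3 (0.909), did not pass. A p that misses the threshold does not show that the backgrounds act alike.

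**Figure D4:**
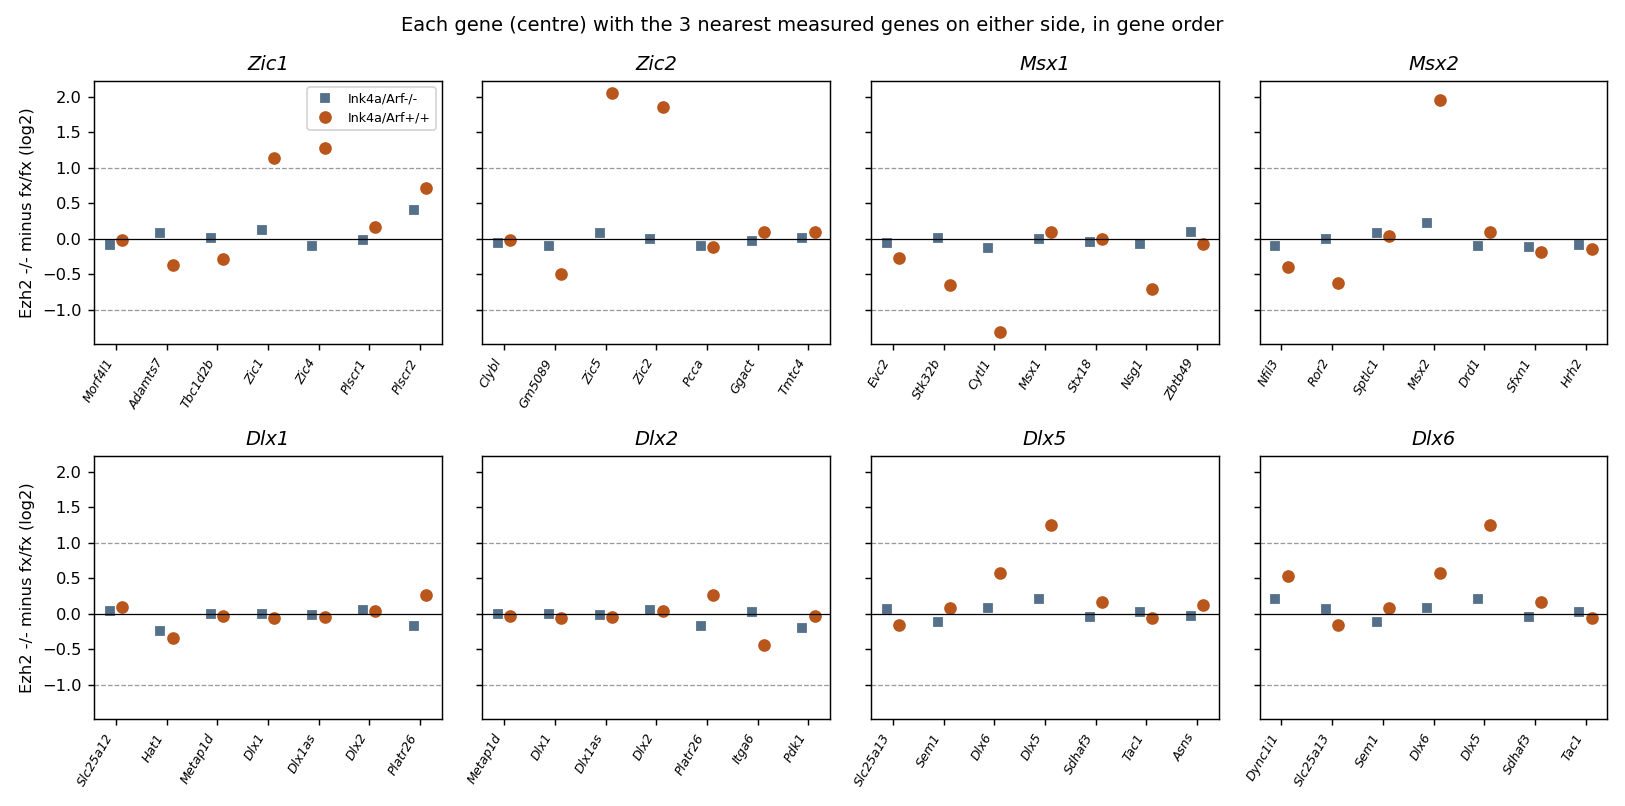
Log2 difference, Ezh2 -/- minus fx/fx (vertical axis), of each of the 8 genes and the 3 nearest measured genes on either side in chromosome order, with squares for Ink4a/Arf-/- and circles for Ink4a/Arf+/+ cells and dashed lines at 2-fold. Among the neighbours only Zic4 and Zic5 reach the upper dashed line in Ink4a/Arf+/+ cells, and Cytl1 beside Msx1 lies under the lower one. Zic5 is drawn by probe set 10376241, and its other probe set differed by 0.58 in Ink4a/Arf+/+ cells.

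Genes next to the 8 were examined because the Zic and Dlx genes lie in family pairs. Outside the Zic, Msx and Dlx families, 0 of 35 neighbours were at least 2-fold higher in the Ink4a/Arf+/+ Ezh2 -/- array, where 0.782% of all genes were, and their median was -0.050. The difference between backgrounds was called by limma for 0 of the 35, where 0.425% of all genes were. On chromosome 9, Zic1 at 1.14 and Zic4 at 1.28 lay between Tbc1d2b at -0.29 and Plscr1 at 0.17. Plscr2, a gene further along, was higher in both backgrounds, by log2 differences of 0.40 in Ink4a/Arf-/- and 0.71 in Ink4a/Arf+/+ cells, and did not pass the limma test in Ink4a/Arf-/- cells (adjusted p = 0.577). On chromosome 14, Zic5, by the probe set with the higher mean level, at 2.05 and Zic2 at 1.85 lay between Gm5089 at -0.49 and Pcca, a propionate-degrading enzyme, at -0.11. The genes flanking both Zic pairs thus lay below or near 0. The Zic5 probe set used here, 10376241, had the higher mean only through the Ink4a/Arf+/+ Ezh2 -/- array. It read 9.64 there, and the other probe set, 10422504, read 8.41. By 10422504, whose identifier is the one that falls among those of these chromosome 14 neighbours, the Zic5 difference was 0.58. On chromosome 13, Msx2 lay between Sptlc1, an enzyme of sphingolipid synthesis, at 0.045 and the dopamine receptor Drd1 at 0.095. On chromosome 6, Dlx6 at 0.58 and Dlx5 at 1.26 lay between the proteasome subunit Sem1 at 0.075 and Sdhaf3, a succinate dehydrogenase assembly factor, at 0.17. On chromosome 2, Dlx1, its antisense transcript Dlx1as at -0.050 and Dlx2 were all nearly level, between Metap1d at -0.030 and Platr26 at 0.27. Next to Msx1 on chromosome 5, Cytl1, a secreted cytokine-like protein, was the 1 neighbour of the 35 at least 2-fold lower, with a log2 difference of -1.31 in Ink4a/Arf+/+ cells, where 0.246% of all genes were.

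Genes whose profile over the 6 arrays was closest to a member's were found by the root mean square distance of levels centred within each table. For Zic1 they were Ebf2, a transcription factor of the early B-cell factor family, at a distance of 0.019, Cyyr1 at 0.026 and the axon guidance ligand Slit3 at 0.029. For Zic2 they were the anion transporter Slc26a7 at 0.051, the semaphorin Sema3d at 0.056 and Heph, a copper-dependent ferroxidase, at 0.065. For Msx2 they were Sema3d at 0.056, the GABA-degrading enzyme Abat at 0.063 and Prdm6, a smooth muscle repressor, at 0.065. Sema3d was thus near both Zic2 and Msx2. For Dlx5 they were the secreted Wnt modulator Sfrp4 at 0.032, the TGF-beta co-receptor Eng at 0.043 and the iron exporter Slc40a1 at 0.044. These distances rest on 6 arrays and mostly on the step between the Ink4a/Arf+/+ arrays.

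**Figure D5:**
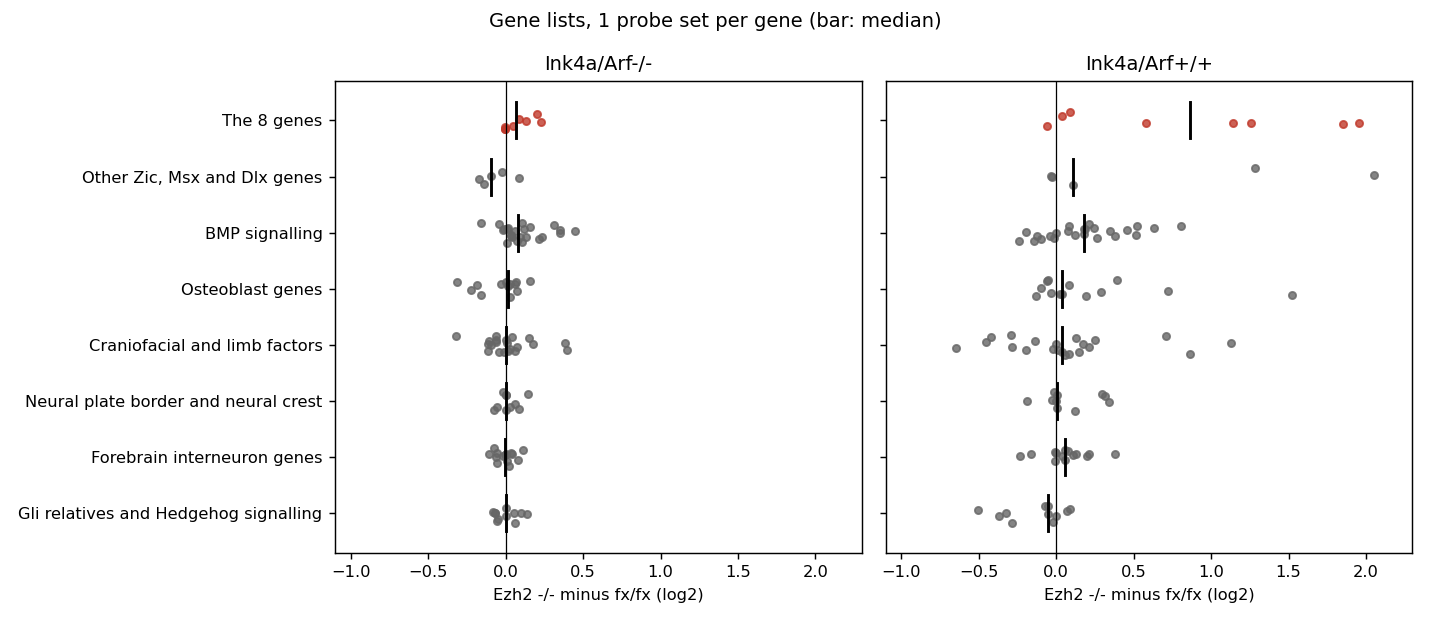
Log2 difference, Ezh2 -/- minus fx/fx (horizontal axis), of every measured gene of 8 lists, 1 probe set per gene, with a bar at each list's median, in Ink4a/Arf-/- cells (left) and Ink4a/Arf+/+ cells (right). The 8 genes, in red, spread from -0.059 to 1.96 on the right, and single members of the osteoblast and craniofacial lists exceed 1 there.

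BMP signalling genes, some of which act upstream of Msx and Dlx genes, were mostly higher on the Ezh2 -/- arrays of both backgrounds, by small amounts. The list mixes ligands, receptors and SMADs with antagonists and target genes, so its counts give no direction of signalling. Its largest difference in Ink4a/Arf-/- cells, 0.45, was in the antagonist Grem1, which differed by 0.46 in Ink4a/Arf+/+ cells. In Ink4a/Arf-/- cells 20 of 24 were higher, with a median of 0.083, while 39.5% of all genes were higher with a median of -0.025. For 13 of the 24 both Ezh2 -/- arrays lay above both fx/fx arrays, as for 13.4% of all genes, for 1 of 24 both lay below, as for 23.3% of all genes, and 0 of 24 passed the limma test over all probe sets. In Ink4a/Arf+/+ cells 16 of 24 were higher, with a median of 0.18, against 51.1% of all genes and a median of 0.0062. The ligand Bmp4 read 13.01 on the Ink4a/Arf+/+ Ezh2 -/- array, against 12.38 on the fx/fx array. Among Ink4a/Arf-/- cells, Bmp4 read 11.78 and 11.72 on the Ezh2 -/- arrays, against 11.56 and 11.48 on the fx/fx arrays, which did not pass the test (limma, adjusted p = 0.667). The ligand Bmp5 was higher by 0.52 in Ink4a/Arf+/+ cells, with 8.85 on the Ezh2 -/- array, against 8.33 on the fx/fx array. Without Ink4a/Arf, Bmp5 read 8.90 and 8.81 on the Ezh2 -/- arrays, against 8.51 and 8.50 on the fx/fx arrays, and did not pass the test either (limma, adjusted p = 0.570). The ligand Bmp2 had opposite signs, with a log2 difference of -0.16 in Ink4a/Arf-/- and 0.80 in Ink4a/Arf+/+ cells.

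Osteoblast genes, some of which Dlx5 activates and Msx2 represses, were split in direction. Their median was 0.015 in Ink4a/Arf-/- and 0.036 in Ink4a/Arf+/+ cells, with 8 of 13 higher in each. Alpl, the alkaline phosphatase of mineralising cells, read 8.83 on the Ink4a/Arf+/+ Ezh2 -/- array, against 7.31 on the fx/fx array, which is a log2 difference of 1.52. Without Ink4a/Arf, Alpl read 7.76 and 7.98 on the Ezh2 -/- arrays, against 7.92 and 7.76 on the fx/fx arrays, and the groups overlapped. The osteoblast transcription factors Sp7 and Runx2 were higher by 0.72 and 0.39 in Ink4a/Arf+/+ cells. Of these 13 genes, Sp7, Ibsp, Bglap and Dmp1 served as defining markers of osteoblasts, and 4 of 4 were higher on the Ink4a/Arf+/+ Ezh2 -/- array, where 51.1% of all genes were. Ibsp at 0.026 and Bglap at 0.036 were nearly level there, and Dmp1 differed by 0.29. In Ink4a/Arf-/- cells 1 of the 4 was higher, where 39.5% of all genes were. Their mean level was between 6.59 and 6.67 on the Ink4a/Arf-/- Ezh2 -/- arrays, against 6.70 and 6.88 on the fx/fx arrays, and it was 5.93 on the Ink4a/Arf+/+ Ezh2 -/- array, against 5.66 on the fx/fx array. Their part in the differences of Alpl, Msx2 and Dlx5 was not tested.

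Other programs in which these factors act had medians near 0. Among 14 forebrain interneuron genes, 0 were 2-fold higher in either background, where 0.0193% of all genes in Ink4a/Arf-/- and 0.782% in Ink4a/Arf+/+ cells were, with medians of -0.0009 in Ink4a/Arf-/- and 0.055 in Ink4a/Arf+/+ cells. Their largest differences in Ink4a/Arf+/+ cells were 0.38 in the neuropeptide gene Npy, -0.24 in Lhx8, a homeodomain factor of cholinergic neurons, and 0.21 in Gsx1, a homeodomain factor of forebrain progenitors. Of the 7 neural cell markers measured, 1 was higher in each background, where 39.5% of all genes in Ink4a/Arf-/- and 51.1% in Ink4a/Arf+/+ cells were. Their median was -0.12 in Ink4a/Arf-/- and -0.067 in Ink4a/Arf+/+ cells. Among 10 measured genes of the neural plate border and neural crest the largest differences in Ink4a/Arf+/+ cells were 0.34 in Snai2, a repressor of epithelial genes, 0.31 in Foxd3, an early crest factor, and 0.30 in Sox10, a glial and pigment cell factor, with a median of 0.0065. Craniofacial and limb factors had a median of 0.0056 in Ink4a/Arf-/- and 0.038 in Ink4a/Arf+/+ cells. Of these 21 genes 1 was at least 2-fold higher in Ink4a/Arf+/+ cells, where 0.782% of all genes were, the peptide Edn1, which induces Dlx5 and Dlx6 in the lower jaw of the mouse embryo. Edn1 read 10.09 on the Ink4a/Arf+/+ Ezh2 -/- array, against 8.97 on the fx/fx array. Without Ink4a/Arf, Edn1 read 10.78 and 10.83 on the Ezh2 -/- arrays, against 10.39 and 10.43 on the fx/fx arrays. It was thus higher without Ezh2 in both backgrounds, by log2 differences of 0.40 and 1.13, and did not pass the limma test in Ink4a/Arf-/- cells (adjusted p = 0.553). Cyp26b1, an enzyme that degrades retinoic acid, and Eya1 followed in that list, at 0.86 and 0.71 in Ink4a/Arf+/+ cells.

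The Gli relatives of the Zic proteins and the Hedgehog pathway around them were mostly slightly lower in Ink4a/Arf+/+ cells. There 9 of 11 were lower on the Ezh2 -/- array, with a median of -0.055, while 51.1% of all genes were higher with a median of 0.0062. The count at 2-fold was 0 of 11, where 0.782% of all genes were higher and 0.246% lower. The largest differences were -0.50 in the zinc-finger factor Glis3, -0.37 in the Hedgehog receptor Ptch1 and -0.32 in Gli3. In Ink4a/Arf-/- cells 6 of 11 were higher, where 39.5% of all genes were, with a median of 0.0004. Glis3 read 10.33 and 10.36 on the Ink4a/Arf-/- Ezh2 -/- arrays, against 10.26 and 10.15 on the fx/fx arrays, and 11.20 on the Ink4a/Arf+/+ Ezh2 -/- array, against 11.70 on the fx/fx array.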

How the data were processed

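Labelled cDNA of mouse embryonic fibroblasts was hybridised to 6 whole-transcript arrays, per the labels' protocols. For each Ink4a/Arf background the authors deposited a table of log2 levels by probe set and array, beside a fold change on the log2 scale and a p-value. The value table of the series holds the same levels. The submitters' processing notes name limma, with no version. How the authors normalized the levels, and the model behind their deposited p-values, is not stated in the labels. Their Ink4a/Arf-/- p-values served as 1 alternative. Of the gene symbols, 26 differed between the tables, and those of the Ink4a/Arf-/- table were used.

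All 23346 probe sets were fitted with limma 3.58.1 in R 4.3.3, with 1 mean per group, so that only Ink4a/Arf-/- replicates set the residual spread. Tests were two-sided, with Benjamini-Hochberg adjustment over all probe sets, and a call needed an adjusted p below 0.05. With 1 array per genotype, Ink4a/Arf+/+ differences have no replicate check, and 2-fold was counted. Precision is limited by the number of arrays.

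In lists each gene had 1 probe set, chosen by the highest mean level over the arrays. For Zic5 the choice of 10376241 rests on the Ink4a/Arf+/+ Ezh2 -/- array. Named from each gene list were the genes at least 2-fold different in either background and, up to 3, those with the next largest difference in Ink4a/Arf+/+ cells. The 3 marker genes at least 2-fold different are named too, as is the BMP antagonist Grem1. Neighbours and older symbols came from RefSeq genes (GRCm38.p6), where 18403 symbols matched directly, 1978 through an older name and 342 not. The members and lists were chosen with earlier results of these data known. No probe set carried the symbol Tfap2a, Tfap2b or Map2, and Adgre1 is listed under its older symbol Emr1. Some list genes are not reported here and were left out of the lists' counts. Alternatives were quantile normalization or centring, another fold, leaving out dim probe sets or single arrays, a replicate block, a variance trend and the authors' p-values.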

Additional observations from a re-analysis of the deposited data

Results flagged for a closer look

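Among the family genes and list genes named here, the Ezh2 difference differed between the backgrounds in the limma test over all probe sets for Zic5 (adjusted p = 0.0235) and Zic4 (adjusted p = 0.0370), and among the cell type markers for Des (adjusted p = 0.0235). Without Ezh2 -/- replicate 1 or 2, Zic4 did not pass (adjusted p = 0.0565 and 0.0836). In Zic5 and Zic4 the Ezh2 -/- array stood higher in Ink4a/Arf+/+ cells and the difference in Ink4a/Arf-/- cells was under 0.1 in size, while Des stood lower in Ink4a/Arf+/+ cells, at -1.75, and differed by 0.15 in Ink4a/Arf-/- cells. Each of the 3 rests on 1 array per genotype in Ink4a/Arf+/+ cells, and Zic5 and Zic4 were listed with earlier results of these data known. For Zic5 and Zic4 this holds for 1 of 2 probe sets, and for Zic5 it is the one whose identifier lies apart from those of its chromosome neighbours. In Dlx4, Bmp2 and Glis3 all arrays of the backgrounds went opposite ways. They were not alone in this among the genes named. Zic4 probe set 10587782 differed by -0.096 in Ink4a/Arf-/- and 1.28 in Ink4a/Arf+/+ cells, and Dmp1 by -0.18 and 0.29. Dlx4 differed by -0.14 in Ink4a/Arf-/- and 0.11 in Ink4a/Arf+/+ cells. Bmp2 differed by -0.16 in Ink4a/Arf-/- and 0.80 in Ink4a/Arf+/+ cells, and Glis3 by 0.14 in Ink4a/Arf-/- and -0.50 in Ink4a/Arf+/+ cells. None of the 3 passed the limma test of the difference between backgrounds (adjusted p = 0.655 for Dlx4, 0.106 for Bmp2 and 0.169 for Glis3).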

How the results depend on the processing

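The count of members at least 2-fold higher in Ink4a/Arf+/+ cells was 4 under quantile normalization, after centring each array, at 1.5-fold and without the dimmest 30% of probe sets. These 4 were picked for their rise in this contrast, so the unchanged count is a description and no support for it. Dlx6, at 1.49-fold, only just missed the 1.5-fold limit. The median difference of the 8 genes there was 0.84 after either scaling. In Ink4a/Arf-/- cells the median of the 8 lay between -0.038 and 0.16 when single arrays were left out, and was negative without fx/fx replicate 2 only. It was 0.066 with a replicate block. Same-numbered replicates did not deviate together (correlation 0.026 across probe sets) and the labels tie no number to a shared culture, so the numbers were not taken as pairs. With the block the difference between backgrounds had an adjusted p of 0.0857 for Zic5 and Des and 0.102 for Zic4 (limma), so none of these 3 calls passed with it. At 1.5-fold 1043 probe sets differed in Ink4a/Arf+/+ cells, against 259 at 2-fold. Calls for Ezh2 loss without Ink4a/Arf numbered 0 with limma as reported (1617 at an unadjusted p below 0.05), 4 without the dimmest probe sets, 48 with a variance trend, 0 with a replicate block, after quantile normalization or by the authors' p-values, and between 0 and 13 without single arrays. For the difference between backgrounds, called for 95 probe sets, the count was 268 after quantile normalization, 355 without the dimmest probe sets, 627 with a variance trend, 6 with a replicate block and between 44 and 245 without single arrays. The cause of these shifts was not tested.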
